A study of Rattus with 12 samples.

Results

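The opioid system genes examined here are the 4 opioid receptor genes, Oprm1, Oprd1, Oprk1 and Oprl1, and the 4 genes of the opioid peptide precursors, Penk, Pdyn, Pomc and Pnoc. They were chosen by symbol, and all 8 were found among the 17337 genes of the count table. RNA was sequenced from 12 complex cultures of cortical neurons, astrocytes and oligodendrocyte precursor cells (OPCs) of Sprague Dawley rats, bought as primary cells and seeded together with neurons in the majority. Untreated cultures received medium alone, and the others received fentanyl at 0.01 μM (low dose) or 10 μM (high dose) for 4 days, with 4 cultures in each condition. Each culture carries a letter: the untreated cultures are A, G, M and P, those with the low dose B, H, N and Q, and those with the high dose C, I, O and R. The letters run on from dose to dose, which gives P-Q-R (called set P), M-N-O (set M), G-H-I (set G) and A-B-C (set A). The meaning of these sets is not stated, so differences within a set are given as values beside the pooled comparison. Each sample is the RNA of a whole mixed culture, so that fewer cells of a type and less RNA per cell cannot be told apart.

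Opioid receptors are G-protein coupled receptors that act through inhibitory G proteins and in neurons dampen firing and transmitter release. Oprm1 encodes the mu receptor, the main target of fentanyl, Oprd1 the delta receptor, Oprk1 the kappa receptor and Oprl1 the related receptor for nociceptin. Their peptide ligands are cut from larger precursor proteins: Penk gives the enkephalins, Pdyn the dynorphins, Pomc beta-endorphin together with corticotropin and melanocortins, and Pnoc nociceptin. In the cortex, Penk, Pdyn and Pnoc are known from subsets of neurons, with Penk also described in cultured astrocytes.

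Reads were given as whole-number counts per gene, and the total per culture lay between 12059872 and 24813893. Levels are CPM, the usual per-library scaling of counts, corrected for library composition by the TMM method. Since transcript lengths were not used, a level is compared between cultures and never between genes. A count of 3 or fewer was taken as the floor of what a culture can show, which corresponds to 0.124 to 0.250 CPM and covers counting error only. The genes were tested together with all others by the quasi-likelihood test of edgeR, in a model with the 3 conditions and 1 factor of unwanted variation, and a gene was called when its adjusted p was under 0.05 and its log2 fold change exceeded 0.5 up or down. Of the 8 genes, 6 had enough counts for this test, among 12271 genes tested. All 10 neuron markers were detected in each culture, and their sum was high in 11 cultures, where Rbfox3, a nuclear protein of mature neurons, had 714 to 2019 counts. Untreated culture G had 20 counts of Rbfox3, and the summed level of 10 neuron markers was 266.6 CPM there against 2392 to 3419 CPM in the others, so values are also given without G where it mattered. The factor of unwanted variation mostly set culture G apart, at 0.927 there and -0.226 to 0.155 in the others. The main fit thus already takes up part of the deviation of G, and differences between letter sets largely remain in its error.

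Transcripts of the mu receptor were close to the limit of detection in every condition. Oprm1 had 2, 0, 5 and 7 counts in the untreated cultures A, G, M and P, and 5, 6, 3 and 4 counts in the low dose cultures B, H, N and Q. In the high dose cultures C, I, O and R it had 1, 3, 4 and 5 counts. The 3 conditions overlapped throughout, and 5 of 12 cultures were at or under the floor. Summed over the 4 cultures, the counts were 14 in untreated cultures (95% exact Poisson interval 7.65 to 23.5). They were 18 in low dose (10.7 to 28.4) and 13 in high dose cultures (6.92 to 22.2). These intervals cover counting error only and are not scaled for depth. The counts of all genes summed to 58955660, 59165669 and 76821619 in the same order. The mean level was 0.261 ± 0.257 CPM (SD, n = 4) for the untreated cultures, 0.307 ± 0.088 CPM for the low dose and 0.169 ± 0.085 CPM for the high dose. On the log2(CPM + 1) scale the high dose lay below the low dose by a difference of -0.16 (exact two-sided permutation p = 0.0857, where 0.0286 is the smallest p possible). The other differences of Oprm1 were 0.07 in low vs. untreated (exact permutation p = 0.686) and -0.09 in high vs. untreated (exact permutation p = 0.600). A change of the mu receptor with dose was not detected, and at these counts a small one could have been missed. In the current RefSeq annotation of the rat, on a later assembly than that of the counts, the gene overlaps Ipcef1, which had 24 to 353 counts in the table, so part of the few Oprm1 reads may belong to its neighbor. Here and for the other genes only whole gene spans were compared, without exons or strand.

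The kappa receptor had fewer reads still. Oprk1 had 3 counts in untreated A and 0 in untreated G, M and P. It had 4, 0, 2 and 0 counts in low dose B, H, N and Q, and 1, 2, 0 and 2 counts in high dose C, I, O and R. In all, 11 of 12 cultures were at or under the floor and 6 had no read, which at this depth allows a level of up to 0.250 CPM in a culture without a read. Its differences on the log2(CPM + 1) scale were 0.08, 0.03 and -0.06 in low vs. untreated, high vs. untreated and high vs. low dose, with exact two-sided permutation p of 0.714, 0.83 and 0.714.

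Delta receptor transcripts were sparse but countable. Oprd1 had 20, 0, 23 and 2 counts in untreated A, G, M and P, then 14, 16, 13 and 6 counts in low dose B, H, N and Q, and 18, 26, 18 and 19 counts in high dose C, I, O and R. High dose cultures were the most alike, at 1.08 ± 0.22 CPM (SD, n = 4), while the untreated cultures ranged from no read to 1.58 CPM and enclosed all 8 treated cultures. Cultures of set P had the lowest Oprd1 level at each dose apart from the untreated culture G. Its log2 fold change was 0.51 in high vs. untreated (SE 0.73), 0.11 in low vs. untreated (SE 0.72) and 0.40 in high vs. low dose (SE 0.72), each with an adjusted p of 1 from edgeR. The 95% interval for high vs. low dose ran from -1.01 to 1.80, so that a change of 2-fold in either direction lies inside it. Without culture G, the log2 fold change was 0.16 in high vs. untreated and -0.23 in low vs. untreated. Leaving out untreated culture M instead gave 1.32 in high vs. untreated.

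The nociceptin receptor was the only receptor with many reads. Oprl1 had a level of 22.6, 3.70, 21.0 and 17.8 CPM in untreated A, G, M and P. In low dose B, H, N and Q it was 25.5, 20.5, 16.9 and 19.3 CPM, and in high dose C, I, O and R it was 25.1, 29.9, 21.8 and 20.1 CPM. Outside culture G the level varied by no more than 1.77-fold over 11 cultures, and the conditions overlapped. The log2 fold change was 0.50 in high vs. untreated (SE 0.22, unadjusted p = 0.0418 and adjusted p = 1 from edgeR). Without culture G it was 0.22 (unadjusted p = 0.181, edgeR), and the high dose mean was then 118% of the untreated mean in place of 149%. In high vs. low dose it was 0.28 (SE 0.21, 95% interval -0.13 to 0.70), with the high dose above the low dose by 0.53 in set G, 0.35 in set M and 0.06 in set P and below it by a difference of -0.02 in set A, on the log2(CPM + 1) scale.

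**Figure D1:**
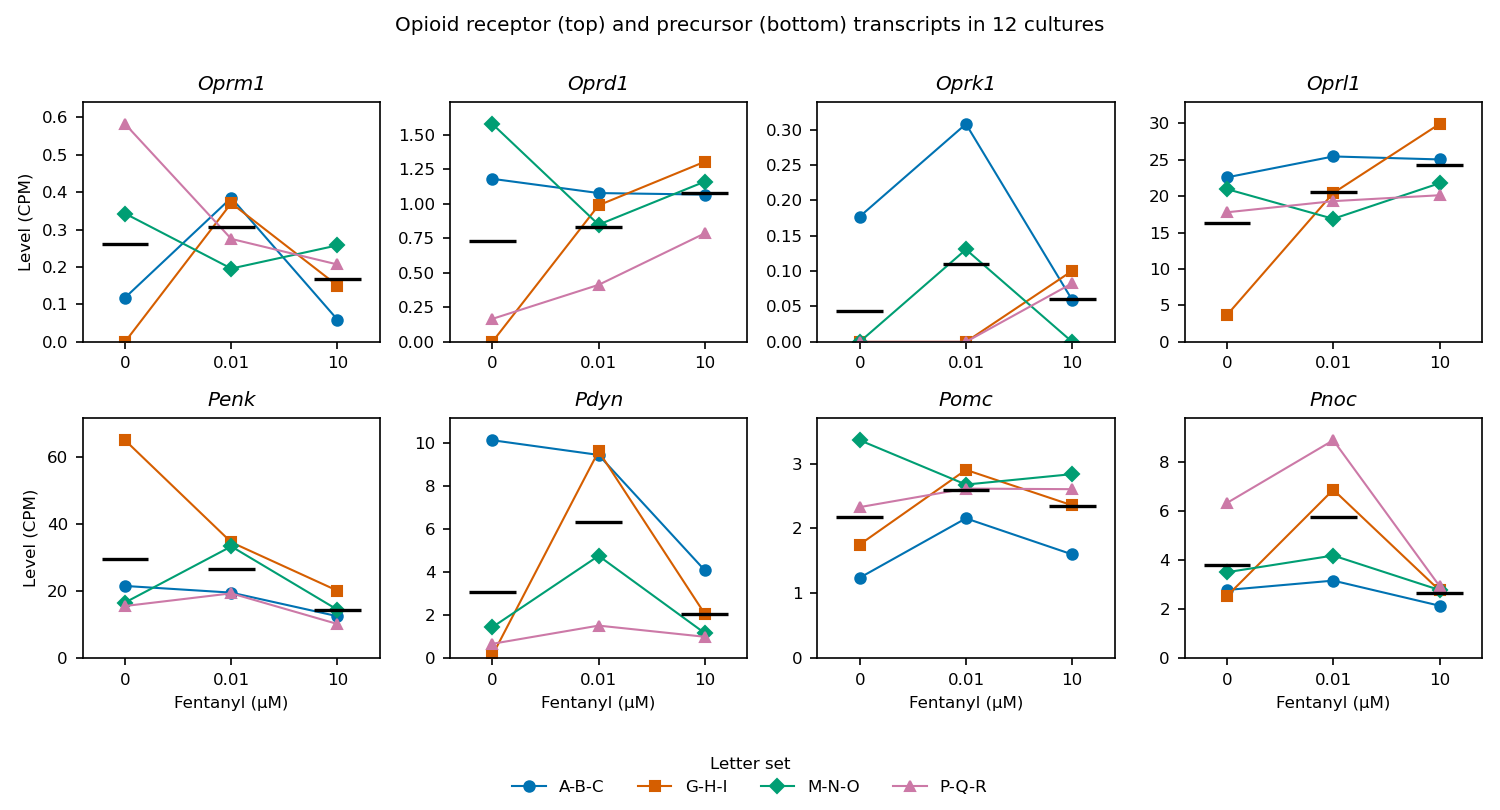
Level in CPM (linear axes that start at 0, different in each panel) of the 4 receptor genes (top) and 4 precursor genes (bottom) against the fentanyl concentration, which is spaced evenly and not to scale. Each point is 1 culture, lines join the cultures of a letter set, and black bars are means of 4 cultures; Penk, Pdyn and Pnoc are lower at 10 than at 0.01 μM in each of the 4 sets, and untreated culture G stands apart in Oprl1 and Penk.

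Among the precursors, Penk, Pnoc and Pdyn stood lower under the high dose than under the low one in each of the 4 letter sets. Penk had 19.6, 34.6, 33.4 and 19.3 CPM in low dose B, H, N and Q. In high dose C, I, O and R it had 12.5, 20.1, 14.4 and 10.2 CPM. All high dose cultures except I were below every low dose culture, and I lay at 20.1 CPM between the 2 lower and the 2 higher low dose cultures. The mean was 14.3 ± 4.24 CPM (SD, n = 4) at the high dose, which is 53.6% of the 26.7 ± 8.41 CPM at the low dose. The log2 fold change was -0.91 (SE 0.23, 95% interval -1.36 to -0.46, unadjusted p = 0.00261 and adjusted p = 1 from edgeR). Within the sets, the difference on the log2(CPM + 1) scale was -0.61 in set A, -0.75 in set G, -1.15 in set M and -0.86 in set P, and over all 8 cultures the exact permutation test, two-sided, gave p = 0.0857.

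Penk was also lower at the high dose than in the untreated cultures of every letter set, though by unequal amounts. The untreated cultures A, M and P had 21.5, 16.6 and 15.6 CPM, while G had 65.1 CPM, the highest of all 12 cultures. The difference on the log2(CPM + 1) scale was -0.74 in set A, -1.65 in set G, -0.19 in set M and -0.57 in set P, and the conditions overlapped. In high vs. untreated the log2 fold change was -0.52 (SE 0.24, unadjusted p = 0.0507 and adjusted p = 1 from edgeR). Leaving out G brought it to -0.36 (unadjusted p = 0.212, edgeR). The high dose mean was then 79.9% of the untreated mean instead of 48.2%. With letter sets in place of the factor, the log2 fold change was -0.88 (unadjusted p = 0.0138, edgeR). Leaving out G from that fit gave -0.53 (unadjusted p = 0.0133, edgeR). Low dose cultures had more Penk than the untreated ones in set M and set P and less in set A and set G, and the fitted log2 value was 0.39 (SE 0.24) with an adjusted p of 1 by edgeR.

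Pnoc separated the doses without overlap. Its level was 3.16, 6.86, 4.18 and 8.87 CPM in low dose B, H, N and Q, against 2.13, 2.76, 2.77 and 2.94 CPM in high dose C, I, O and R. The counts behind these values were 41 to 129 at the low dose and 36 to 71 at the high dose. Every high dose culture lay below every low dose culture, though the highest of the former and the lowest of the latter, R and B, were close. The mean was 2.65 ± 0.35 CPM (SD, n = 4) and 46.0% of the low dose mean of 5.77 ± 2.59 CPM (p = 0.0286 in the two-sided exact permutation test, which can give no smaller value). A separation in this direction was seen in 0.522% of all genes tested, and in the other direction in 0.668%. The log2 fold change was -1.10 (SE 0.35, 95% interval -1.78 to -0.41, unadjusted p = 0.0102 and adjusted p = 1 from edgeR).

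In untreated cultures A, G, M and P, Pnoc was at 2.77, 2.53, 3.50 and 6.32 CPM. The low dose level was higher than the untreated level in each letter set, by 0.14, 1.15, 0.20 and 0.43 on the log2(CPM + 1) scale in set A, set G, set M and set P, a direction shared in all sets by 4.06% of genes tested. Its log2 fold change in low vs. untreated was 0.50 (SE 0.36) and in high vs. untreated -0.60 (SE 0.36), both with an adjusted p of 1 from edgeR. High dose cultures were also the most uniform, with a highest level 1.38 times the lowest, compared with 2.50 times in untreated and 2.81 times in low dose cultures. Pnoc and Oprl1, the precursor and the receptor of nociceptin, thus had opposite signs in high vs. low dose, -1.10 and 0.28, of which the second has an interval that includes 0.

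Pdyn varied most of the 8 genes, with an SD of 1.13 on the log2(CPM + 1) scale over the 12 cultures. Untreated A, G, M and P had 10.2, 0.130, 1.44 and 0.665 CPM, from 172, 2, 21 and 8 counts. Low dose B, H, N and Q had 9.47, 9.64, 4.76 and 1.51 CPM, and high dose C, I, O and R had 4.09, 2.06, 1.16 and 0.992 CPM. Cultures A, B and H lay between 9.47 and 10.2 CPM and each of the others at 4.76 CPM or less, so that high and low levels occurred among untreated and low dose cultures alike. The high dose mean was 2.07 ± 1.42 CPM (SD, n = 4), 32.7% of the low dose mean of 6.34 ± 3.93 CPM. The log2 fold change was -1.64 (SE 0.85, 95% interval -3.30 to 0.02, unadjusted p = 0.0807 and adjusted p = 1 from edgeR), with differences of -1.04, -1.80, -1.42 and -0.34 on the log2(CPM + 1) scale in set A, set G, set M and set P.

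Compared with untreated cultures, Pdyn had no single direction. Low vs. untreated gave a log2 fold change of 1.18 (SE 0.86) and high vs. untreated -0.47 (SE 0.88), with an adjusted p of 1 for each from edgeR. Culture A weighed on both values, which were 3.06 and 1.45 without it. A long non-coding RNA overlaps Pdyn in the current annotation, so some of its reads may be uncertain.

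The means of Pomc differed by less than the spread between untreated cultures. It had 21, 27, 49 and 28 counts in untreated A, G, M and P, then 28, 47, 41 and 38 in low dose B, H, N and Q, and 27, 47, 44 and 63 in high dose C, I, O and R. Its mean level was 2.17 ± 0.91, 2.59 ± 0.31 and 2.35 ± 0.54 CPM (SD, n = 4) in the same order, and all 3 conditions overlapped. The log2 fold change was -0.14 in high vs. low dose (SE 0.32, 95% interval -0.76 to 0.49) and 0.10 in high vs. untreated (SE 0.33, 95% interval -0.54 to 0.75), each with an adjusted p of 1 from edgeR. In the current annotation the span of the gene overlaps that of Efr3b, so some of its reads may be uncertain. Exons and strand were not compared.

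**Figure D2:**
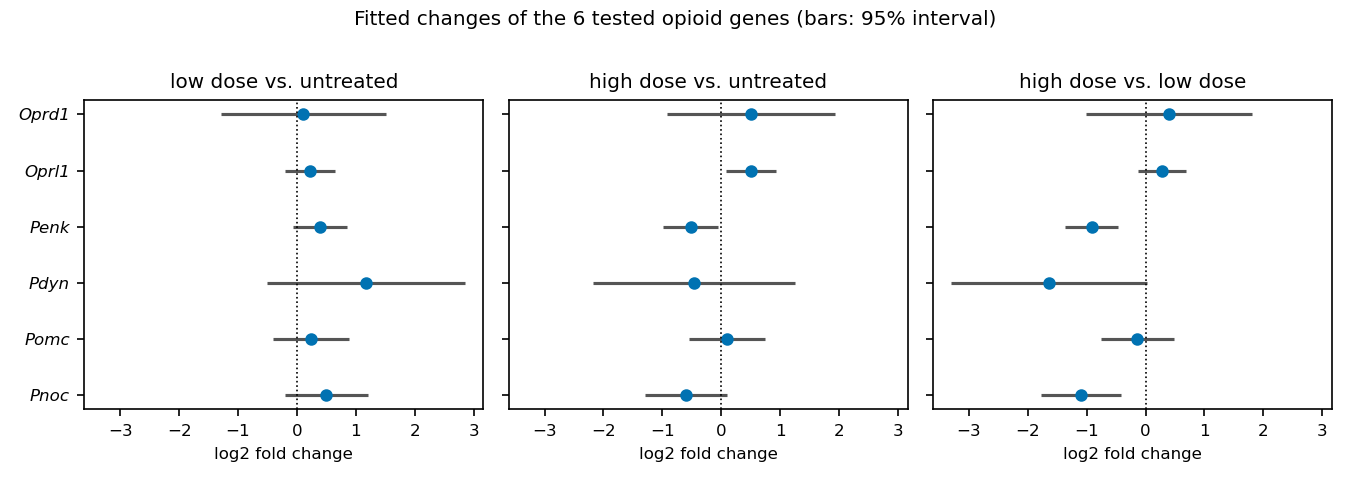
Fitted log2 fold change (points, edgeR) with its 95% interval (bars) of the 6 tested opioid genes in the 3 comparisons. The intervals of Penk (-1.36 to -0.46) and Pnoc (-1.78 to -0.41) lie below 0 in high vs. low dose, and that of Oprl1 lies above 0 in high vs. untreated, before any adjustment for the number of genes tested.

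Of the 6 tested genes, edgeR called 0 in low vs. untreated, 0 in high vs. untreated and 0 in high vs. low dose. It called 0% of all genes tested in each, so the lack of calls was not particular to the opioid genes. At the same thresholds the paper reported differentially expressed genes in each of these comparisons. It does not give the procedure or number of factors of its own fit. DESeq2 called 0 of the 6 genes in each comparison too, where it called 0%, 0.0244% and 0.00815% of all genes tested. An unadjusted p under 0.05 from edgeR was reached by 0 of the 6 in low vs. untreated, where 0.733% of all genes tested did so. Oprl1 alone, on the higher side, reached it in high vs. untreated, where 0.921% of all genes did so on the higher and 0.269% on the lower side. In high vs. low dose it was reached by Penk and Pnoc, both on the lower side, where 0.587% of all genes did so on that side and 0.579% on the higher side. DESeq2 gave an unadjusted p under 0.05 for 0, 2 and 3 of the 6 genes in these comparisons, with Pdyn as the third in high vs. low dose, where 1.03%, 1.58% and 1.74% of all genes tested did so in the same order. The median log2 fold change of the 6 genes was 0.32, -0.18 and -0.52 in low vs. untreated, high vs. untreated and high vs. low dose, beside medians of 0.01, 0.00 and -0.01 over all genes tested.

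In high vs. low dose, Penk, Pdyn and Pnoc were lower in all 4 letter sets, a direction shared by 11.1% of all genes tested, while 11.7% were higher in all 4. In high vs. untreated, Oprl1 was higher and Penk lower in all 4 sets, as were 5.22% of all genes in each direction. Penk and Pnoc kept an unadjusted p under 0.05 in high vs. low dose in each of the 12 fits that left out 1 culture, with p from 0.000755 to 0.0129 for Penk and from 0.000985 to 0.0411 for Pnoc (edgeR). In 4 of these fits the culture left out was untreated, and it enters this comparison only through the factor and the shared spread. The lowest p of Pnoc came from such a fit, the one without G. All 12 fits reuse the same cultures and are not independent. Pdyn reached an unadjusted p under 0.05 in 3 of these 12 fits. The fit without culture G gave Pdyn a log2 fold change of -1.66 (unadjusted p = 0.00462, edgeR). In high vs. untreated it was reached by Oprl1 in 6 of the 12, by Penk in 4 and by Pnoc in 1, and in low vs. untreated by Pnoc in 2 and by Pdyn in 1. Oprl1 reached it in 1 of the 12 in high vs. low dose. The share of all genes at this p was not computed for these fits, so the counts have no background beside them. That share depended on the fit. In high vs. low dose it was 1.17% in the main fit and 13.6% with letter sets in place of the factor and without G. Comparisons with the untreated condition share its 4 cultures, G among them, and are not independent of each other.

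**Figure D3:**
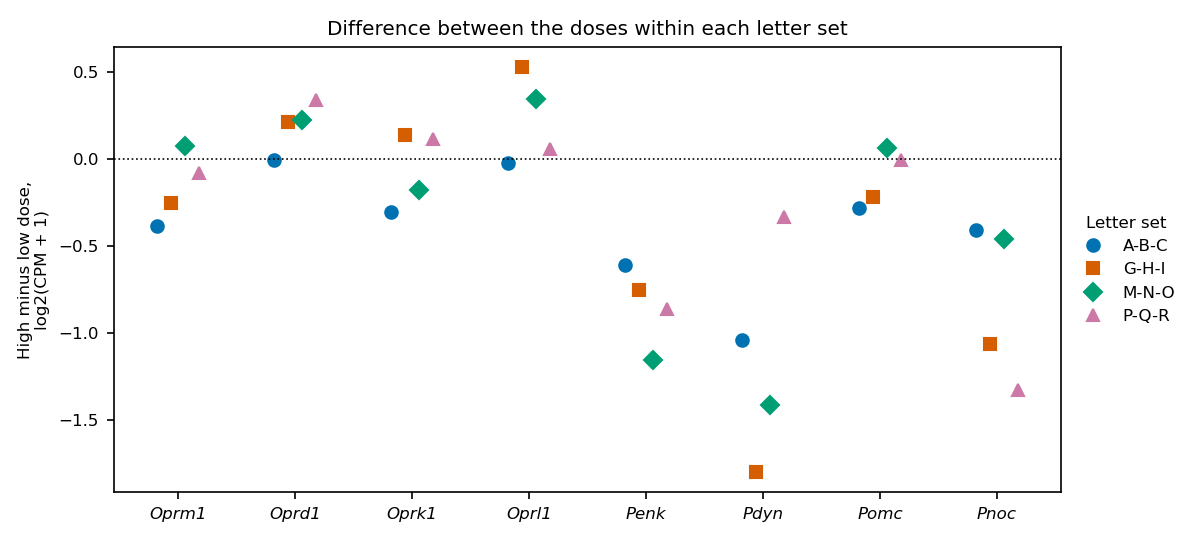
Difference between the high dose and the low dose culture of each letter set (vertical axis, on the log2(CPM + 1) scale) for the 8 genes, with 1 point per set. All 4 points of Penk, Pdyn and Pnoc lie below 0, while those of the 4 receptor genes and Pomc fall on both sides of 0.

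Marker transcripts of GABAergic neurons, a class to which many Penk, Pdyn and Pnoc cells of the cortex belong, were set beside these differences. The summed level of 8 such markers, including Gad1, Gad2 and Slc32a1, was 86.3, 142.5, 117.7 and 67.2 CPM in low dose B, H, N and Q. In high dose C, I, O and R it was 73.8, 129.5, 129.2 and 58.8 CPM, lower in 3 sets and higher in set M. The largest difference between the doses was in set M for Penk, in set G for Pdyn and in set P for Pnoc. Over 10 general neuron markers, the summed level was 2392 to 3135 CPM at the low dose and 2794 to 3419 CPM at the high dose. Fibroblast markers ranged from 75.1 to 2892 CPM at the low dose, with the highest sum in N, and from 63.4 to 274.9 CPM at the high dose. Astrocyte markers summed to 4001, 3622, 2976 and 10690 CPM in B, H, N and Q and to 4031, 2580, 1989 and 7634 CPM in C, I, O and R, lower under the high dose in sets G, M and P and higher in set A. General neuron markers and glutamatergic neuron markers (751 to 1150 CPM and 963.1 to 1300 CPM) were higher under the high dose in all 4 sets. The part of these markers in the differences of the precursors was not tested.

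Untreated culture G, in which neuron markers were low, divided the 8 genes. Oprl1 was at 3.70 CPM there and 16.9 to 29.9 CPM in the other 11 cultures, a 4.57-fold gap to the nearest. Pdyn had only 2 counts there, beside 8 to 172 elsewhere. Oprd1 had 0 counts in G, which allows up to 0.195 CPM, and 2 to 26 counts in the others. Oprm1 had 0 counts in G as well and 1 to 7 in the others, all close to the floor. In the opposite direction, Penk was 1.88 times its highest level in any other culture. Pomc with 27 counts and Pnoc with 39 counts lay inside the range of the other cultures. Culture G had 1749 CPM of fibroblast markers (63.4 to 2892 CPM in the others) and 45.5 CPM of endothelial markers (0.951 to 6.96 CPM). Microglia markers were at 859.4 CPM (32.3 to 1109 CPM) and astrocyte markers at 7804 CPM (1989 to 10690 CPM). OPC markers were at 1067 CPM (211.4 to 1011 CPM). The part of these cell types in the Penk level of G was not tested.

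**Figure D4:**
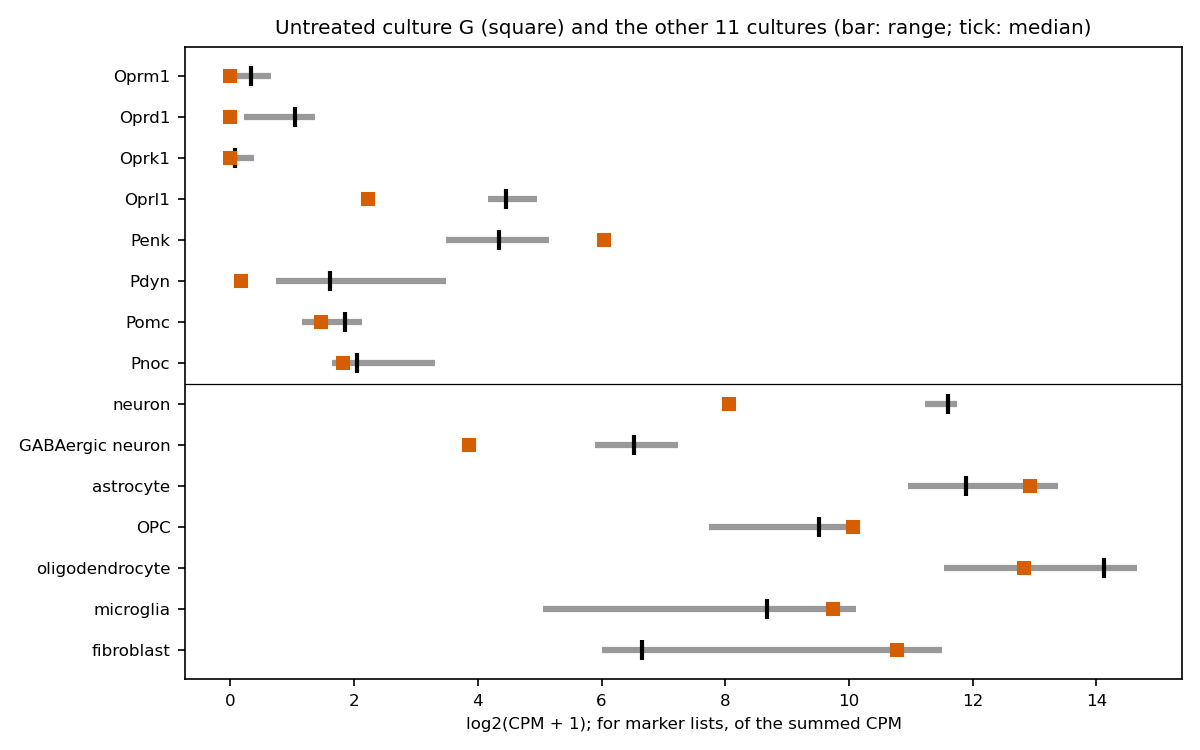
Level on the log2(CPM + 1) scale of the 8 opioid genes (above the line) and of the summed markers of 7 cell types (below it) in untreated culture G (squares) and in the other 11 cultures (bars give the range, ticks the median). Oprl1, Pdyn, Oprd1 and Oprm1 (0 counts beside 1 to 7) in G lie below the range of the other cultures. The neuron and GABAergic neuron markers do so too, while Penk and the OPC markers lie above their ranges.

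The other cultures differed along their letter sets as well. In set P, microglia markers summed to 32.3 to 37.6 CPM against 259.7 to 1109 CPM in all other cultures, and astrocyte markers had their highest sum of each dose, 9181, 10690 and 7634 CPM. Pnoc also had its highest level of each dose there, 6.32, 8.87 and 2.94 CPM. In set A, OPC markers (211.4 to 272.8 CPM, beside 597 to 1067 CPM elsewhere) and oligodendrocyte markers (2965 to 4503 CPM, beside 7259 to 25730 CPM) were lowest. Glutamatergic neuron markers were highest of each dose there, at 1421, 1150 and 1300 CPM, and Pdyn was the highest of its dose in A and C and second to H in B. Pomc was the lowest of its dose in each culture of set A. The part of these cell types in the levels of the opioid genes was not tested.

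To place the 8 genes in their pathway, lists of 7 peptide processing genes, 8 peptide breakdown genes, 8 genes of receptor handling and 8 other cortical neuropeptides were followed in the same fit. All 31 could be tested, with Grk2 and Grk3 found under their older symbols, and 0 were called in any comparison by edgeR. The number at an unadjusted p under 0.05 was 0 in low vs. untreated, 0 in high vs. untreated and 1 in high vs. low dose, and DESeq2 gave 0, 1 and 1. Over all genes tested the share was 0.733%, 1.19% and 1.17% with edgeR and 1.03%, 1.58% and 1.74% with DESeq2, so the counts over 31 genes are near the background.

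That gene was Pam, which encodes the enzyme that amidates the ends of many neuropeptides. It was at 466.8, 553.1, 602.6 and 544.9 CPM in low dose B, H, N and Q and at 426.9, 414.4, 391.9 and 382.3 CPM in high dose C, I, O and R. The doses did not overlap, as for Pnoc, a separation in this direction seen in 0.522% of all genes tested. The log2 fold change was -0.42 (SE 0.11, unadjusted p = 0.00293 and adjusted p = 1 from edgeR). Cpe, the carboxypeptidase that trims cut peptides, had 1405 ± 128 CPM (SD, n = 4) under the high dose and 1607 ± 200 CPM under the low dose, with a log2 fold change of -0.20 (SE 0.13). Pcsk1n, an inhibitor of the convertase Pcsk1, had a value of 0.25 (SE 0.16). Of the 7 processing genes, 3 had a log2 fold change above 0 and 4 below it, with a median of -0.07. Pam, Cpe and Pcsk1 were lower at the high dose in all 4 letter sets, though Pcsk1 by less than 0.01 on the log2(CPM + 1) scale in 2 of them. Of all genes tested, 11.1% were lower in all 4 sets.

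Genes of peptide breakdown had a median log2 fold change of -0.0040 in high vs. low dose and 4 genes on either side of 0. Dpp3, a peptidase that cuts enkephalins, had -0.10 (SE 0.11), Ide, the insulin-degrading enzyme, 0.07 (SE 0.16) and Anpep, aminopeptidase N, 0.25 (SE 0.57). Anpep had 741 counts in untreated culture G and 3 to 85 counts in the others. In the list of receptor handling the median was 0.07, with 6 genes above 0. Ackr3, a scavenger receptor for opioid peptides and chemokines, had -0.31 (SE 0.29), Grk3, a kinase that phosphorylates active receptors, 0.31 (SE 0.39) and Gprasp1, which sorts the delta receptor to lysosomes, 0.09 (SE 0.12). None of these 6 values passed the threshold, and the adjusted p was 1 for each (edgeR).

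The other cortical neuropeptides had a median log2 fold change of 0.53 in low vs. untreated, 0.16 in high vs. untreated and -0.68 in high vs. low dose. In the last comparison 6 of the 8 were below 0. Npy, Crh and Nts were lower in all 4 letter sets, a direction shared by 11.1% of all genes tested. Cort, which encodes cortistatin, had -1.86 (SE 1.12), Nts, the neurotensin gene, -0.82 (SE 0.52) and Tac1, which encodes substance P, -0.75 (SE 0.53), each with an adjusted p of 1 from edgeR. All 3 were sparse, with at most 41, 37 and 43 counts in a culture. The precursors Penk and Pnoc had errors of 0.23 and 0.35 in the same fit.

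**Figure D5:**
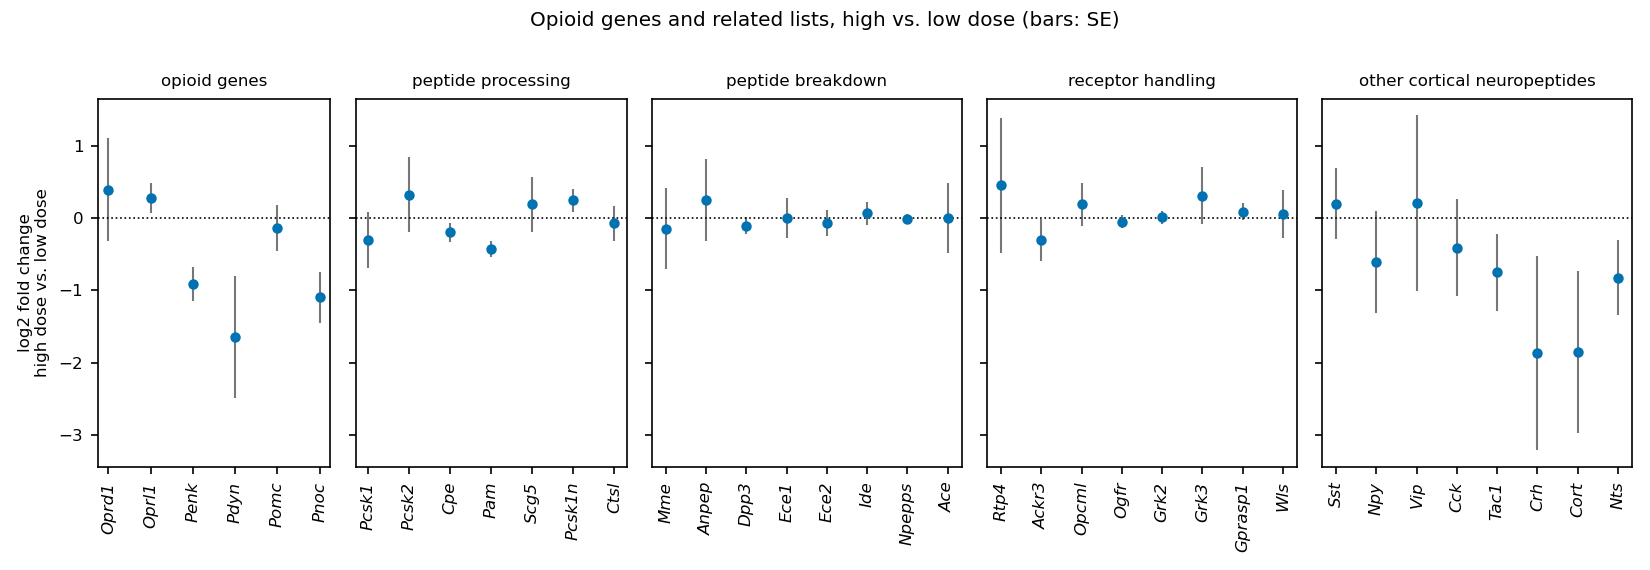
Fitted log2 fold change in high vs. low dose (points, edgeR) with its SE (bars) for the 6 tested opioid genes and the 31 genes of the related lists. Penk, Pnoc and Pam are the genes with an unadjusted p under 0.05. Genes of peptide breakdown and receptor handling lie on both sides of 0, between -0.31 and 0.46.

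Genes with the most similar profile were sought for each tested gene as those with the smallest root mean square difference of log2(CPM + 1) over the 12 cultures, after each gene was centered on its mean. For Oprl1 these were Slc25a23, Tiam1 and Gpm6a, with differences of 0.13, 0.13 and 0.14 beside an SD of 0.69 for Oprl1 itself. For Penk they were Mgst2, LOC100910996 and Ccdc125, with 0.32, 0.35 and 0.36 beside an SD of 0.70. Pdyn was followed less closely, by Egln3, Rassf7 and Bnip3, with 0.49, 0.49 and 0.51 beside an SD of 1.13. Pnoc had Pamr1, Prr15 and Fuom (0.28, 0.28 and 0.30, SD 0.53), Oprd1 had Pcdhga3, Napa and Nr3c2 (0.15, 0.17 and 0.18, SD 0.41), and Pomc had Wfikkn1, Snapc5 and Lekr1 (0.12, 0.12 and 0.12, SD 0.27). Culture G weighed on these lists. Without it, the nearest genes were Prkg2, Smarca2 and Meis2 for Oprl1 and Lamb3, Th and Tp53i3 for Penk, where Lamb3 differed from Penk by 0.17 and Th, the rate-limiting enzyme of dopamine synthesis, by 0.23.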

How the data were processed

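RNA of 12 cultures was sequenced from poly(A) libraries made with a kit that does not keep the strand. The deposited values are whole-number read counts per gene, which the authors obtained by mapping reads to rn6 with STAR and counting with featureCounts. The annotation and strand setting are not given in the sources used here. The counts hold no normalization. Cultures of a condition differed by far more than sampling noise, and where nothing states separate cell preparations, p-values measure the spread between these cultures, which may be technical.

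Counts were scaled by TMM, and 12271 of 17337 genes were kept by filterByExpr. The paper names RUVseq and edgeR without the procedure, so 1 factor was computed in R 4.3.3 with a rewritten RUVs method, using the replicate cultures, and fitted with the 3 conditions by the quasi-likelihood test of edgeR 4.0.16 with Benjamini-Hochberg adjustment. Genes below the filter (Oprm1 and Oprk1) were compared by exact two-sided permutation tests of log2(CPM + 1) over 70 arrangements. Oprd1, Oprl1 and the 4 precursors were tested in both ways. The fit was tested on simulated counts. Alternatives were no factor, 2 factors, DESeq2 1.42.0 or its size factors, no filter, a block by letter sets with and without culture G, each culture left out, and an offset of 0.1 CPM.

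Named were the 8 genes, from each related list the 3 genes of smallest p in high vs. low dose with any gene at an unadjusted p under 0.05, and the 3 nearest profiles per tested gene. The nearest profiles without G, Npy, Crh and Pcsk1 were added after their values were seen. The genes and lists were chosen with earlier results of these data known. The reference names 8 of 8 genes on another assembly than rn6, so no coordinates are given, and no sequences were used here. Dlx6 was not found under the table's symbols, which left 8 GABAergic markers. Electrical recordings were not analysed here.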

Additional observations from a re-analysis of the deposited data

Results flagged for a closer look

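A single culture stood apart from the other 3 of its condition in 3 of the 24 sets of 4 levels compared, by Dixon's ratio of the gap to the range against its 95% critical value, where chance flags about 1 in 20. Penk was at 65.1 CPM in untreated culture G and at 15.6 to 21.5 CPM in the other untreated cultures. Pdyn was at 10.2 CPM in untreated culture A and at 0.130 to 1.44 CPM in the others. Oprk1 was at 0.177 CPM in untreated culture A, from 3 counts, and had no read in the others. With the other 3 cultures at 0 the ratio is 1 whatever the value in A, and 3 counts are at the floor, so this entry carries no information and is no part of a comparison with chance.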

How the results depend on the processing

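The count of opioid genes called was 0 in every comparison under each alternative, except that the exact permutation test, with no adjustment, gave 1 (Pnoc, difference -0.81) in high vs. low dose. In that comparison Penk, Pnoc, Pdyn, Oprl1 and Oprd1 had the same sign under all 20 alternatives. Opposite signs occurred elsewhere, and their cause was not tested. With the replicate block by letter sets in place of the factor, Pdyn in high vs. untreated was 0.025 (0.10 without a model). With this block and without G, low vs. untreated was -0.28 for Oprd1 and -0.058 for Oprl1, and without any factor -0.15 for Penk. Leaving out 1 culture gave, in low vs. untreated, -0.25 to 0.92 for Oprd1, -0.011 to 0.49 for Oprl1, -0.0065 to 0.56 for Pomc and -0.033 to 0.19 for Oprm1. In high vs. untreated it gave -0.95 to 1.45 for Pdyn, -0.14 to 0.42 for Pomc and -0.19 to 0.026 for Oprm1, and in high vs. low dose -0.25 to 0.0088 for Pomc and -0.10 to 0.025 for Oprk1. The block called 0 of the 6 genes in each comparison. With it and without G, the adjusted p in high vs. low dose was 0.0693 for Penk, 0.0876 for Pnoc and 0.115 for Pdyn (edgeR). In that fit 0.113% of all genes were called. Penk in high vs. untreated was -0.88 with the block (unadjusted p = 0.0138, edgeR) and -0.53 with the block and without G (unadjusted p = 0.0133, edgeR), beside -0.36 with the factor and without G. Of 12 cultures, 10 were closest, among cultures of other doses, to one of their own letter set, with G and M as the exceptions. The within-set correlation of deviations across genes had a median of 0.71 over 12 pairs. Most sets thus held together, but the lowest correlation was -0.19 and the labels state no pairing, so the letters were not taken as one. Related genes at an unadjusted p under 0.05 numbered 0, 0 and 1 in the 3 comparisons. They numbered 1, 5 and 8 with the block and without G, where 7.54%, 9.43% and 13.6% of all genes did so. In high vs. untreated they numbered 2 with the block, 1 without any factor and 1 with DESeq2. The share of all genes there was 3.05%, 1.07% and 1.58% in the same order. With 1 culture left out, which was added after the data were seen, there were 0 to 3, 0 to 3 and 1 to 3. For those fits the share of all genes was not computed. Without G, the 3 nearest profiles kept 1 gene for Pdyn and 1 for Pnoc, and 0 for Oprd1, Oprl1, Penk and Pomc. Depth limits Oprm1 and Oprk1, which had at most 7 and 4 counts in a culture.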
